A study of Mus musculus with 6 samples.

Results

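The 10 genes described here encode kinases, cyclins and other proteins of mitosis: Mki67, Top2a, Cdk1, Ccnb1, Ccna2, Aurka, Aurkb, Plk1, Bub1 and Foxm1. They were taken by symbol from a table of read counts per gene, and all 10 were found among its 24167 genes. They were measured in dissected tumours of the liver, seeded by 4T1 cells (a triple-negative mammary carcinoma line of the mouse) in female BALB/c mice of 6 to 8 weeks. The injected cells carried either a scrambled hairpin (shSCR, 3 libraries) or a hairpin against Zdhhc17, which encodes a palmitoyltransferase (shZdhhc17, 3 libraries). Each injection delivered 500000 cells hydrodynamically into the tail vein, the metastases were dissected on day 10, and their polyadenylated RNA was sequenced. Both groups went through lentiviral delivery and puromycin selection, so these are shared by the controls. Only the injected cells carry a hairpin, while the dissected tissue also holds host liver and immune cells, which carry none. The protocol counts 3 mice per group without tying each library to a single animal, and p-values therefore reflect how far these libraries spread, which may be partly technical.

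In the cell cycle, cyclin A2 (Ccna2) and cyclin B1 (Ccnb1) activate the kinase CDK1 (Cdk1), which drives cells from the G2 phase into mitosis. Polo-like kinase 1 (Plk1) and the Aurora kinases (Aurka, Aurkb) then build the spindle and correct how chromosomes attach to it, and BUB1 takes part in the checkpoint that holds cells until every chromosome is attached. FOXM1 and the B-MYB-MuvB complex switch this gene programme on late in the cycle, so its transcripts are widely read as a sign of dividing cells. Adult hepatocytes divide rarely, whereas cancer cells and blood progenitors divide often.

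No difference in the mitosis genes was detected between shZdhhc17 and shSCR metastases. Of the 10, 0 passed the threshold, a Benjamini-Hochberg adjusted p under 0.05 by edgeR's quasi-likelihood test over all 15567 genes tested. All 10 were among the genes tested, and the background is likewise 0% of all genes. At an unadjusted p under 0.05 the count was 0 of 10, against 11.4% of all genes (4.72% higher and 6.71% lower in shZdhhc17), and limma voom and DESeq2 called 0 of the 10 as well (DESeq2 background 1.22%). The log2 fold changes, shZdhhc17 minus shSCR, ran from -0.10 for Bub1 to 0.088 for Top2a. Their median was 0.0077, against 0.0017 over all genes tested, and their median absolute value was 0.045, against 0.21 over all genes. The 95% intervals of the 10 differences ran at most from a ratio of 0.646 (Bub1) to a ratio of 1.60 (Cdk1), so a 2-fold change in either direction lay outside each of them, while smaller differences were not resolved. The 2 groups overlapped in all 10 genes, whereas they did not overlap in 17.1% of all genes tested (7.48% higher and 9.62% lower in shZdhhc17).

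**Figure D1:**
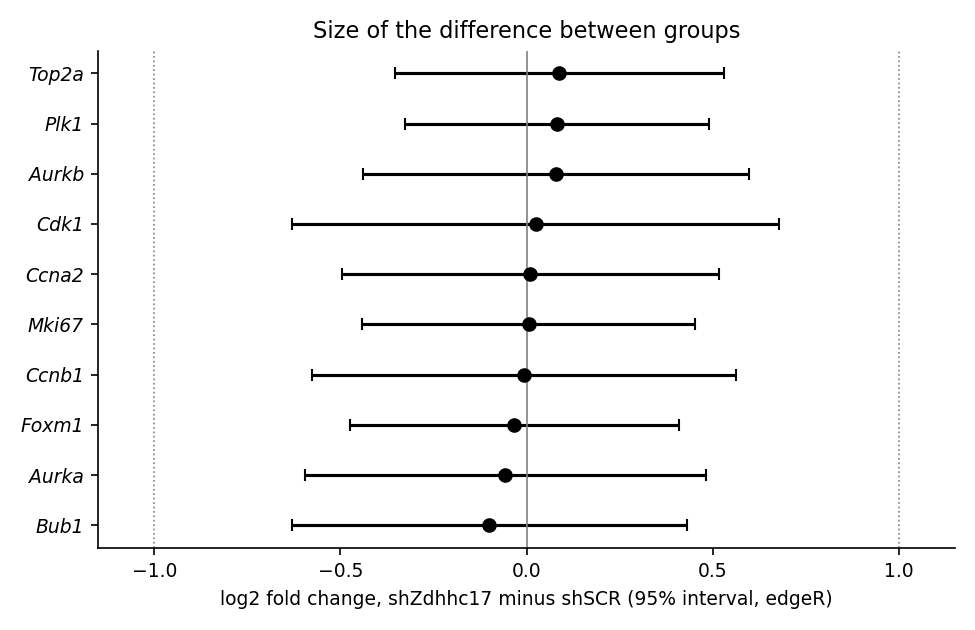
Log2 fold change of each mitosis gene, shZdhhc17 minus shSCR, with its 95% interval from edgeR; dotted lines mark a 2-fold change. All 10 intervals cross 0, and none reaches a dotted line.

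The libraries themselves held between 15832837 and 19186615 counts. The mitosis genes had between 375 counts (Bub1 in shZdhhc17 replicate 3) and 6547 counts (Top2a in shSCR replicate 1) per library, so counting error was at most 5.16% of a value. The targeted gene gives a weak check of the labels: Zdhhc17 stood at 33.7, 32.4 and 34.2 CPM (read counts scaled by normalized depth) in the 3 shSCR libraries and at 25.9, 27.8 and 26.0 CPM in the shZdhhc17 replicates. The silenced libraries were all lower, without overlap, as were those of 9.62% of all genes tested. The log2 fold change was -0.33 ± 0.11 (SE), which did not pass the threshold over all genes (edgeR adjusted p = 0.383).

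The kinase and cyclins that start mitosis spread over the same range in both groups. Cdk1 (ENSMUSG00000019942.14), the kinase of mitotic entry, stood at 120, 65.0 and 104 CPM in shSCR replicates 1, 2 and 3 and at 132, 80.2 and 82.0 CPM in shZdhhc17 replicates 1, 2 and 3. Both the highest value (shZdhhc17 replicate 1) and the second highest (shSCR replicate 1) lay far above the lowest, shSCR replicate 2, and the ratio of highest to lowest was 2.04, the widest among the 10 genes. The shZdhhc17 mean was 98.1 ± 29.6 CPM and the shSCR mean 96.5 ± 28.4 CPM (SD, n = 3), which is a log2 fold change of 0.025 ± 0.28 (SE, with edgeR adjusted p = 0.983). Ccnb1 (ENSMUSG00000041431.17), the B-type cyclin partner of CDK1, stood at 46.6, 27.8 and 39.0 CPM in the shSCR replicates and at 48.9, 30.6 and 33.4 CPM in the shZdhhc17 replicates. It repeated the order seen for Cdk1 at its ends, highest in shZdhhc17 replicate 1 and lowest in shSCR replicate 2, and its log2 fold change was -0.0071 ± 0.24 (SE, with edgeR adjusted p = 0.995). Ccna2 (ENSMUSG00000027715.10), the cyclin that acts from S phase into early mitosis, stood at 122, 87.7 and 138 CPM in the shSCR replicates and at 146, 102 and 103 CPM in the shZdhhc17 replicates. Here too the groups overlapped, and the log2 fold change was 0.0100 ± 0.22 (SE; edgeR adjusted p = 0.992).

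The Aurora and Polo-like kinases likewise overlapped between the groups. Aurka (ENSMUSG00000027496.16), the kinase of centrosomes and spindle poles, stood at 27.6, 19.9 and 35.3 CPM in shSCR replicates 1, 2 and 3 and at 31.8, 22.7 and 25.1 CPM in the shZdhhc17 replicates. Its extremes both lay in the control group, with shSCR replicate 3 highest and shSCR replicate 2 lowest (log2 fold change -0.057 ± 0.23, SE; edgeR adjusted p = 0.941). Aurkb (ENSMUSG00000020897.13), the catalytic subunit of the chromosomal passenger complex, stood at 33.2, 29.2 and 41.3 CPM in the shSCR replicates and at 48.2, 29.7 and 31.7 CPM in the shZdhhc17 replicates. One library, shZdhhc17 replicate 1, stood above the other five, which ran from 29.2 to 41.3 CPM (log2 fold change 0.079 ± 0.22, SE; edgeR adjusted p = 0.904). Plk1 (ENSMUSG00000030867.8), which acts on centrosomes, kinetochores and cytokinesis, stood at 40.4, 33.4 and 51.2 CPM in the shSCR replicates and at 48.2, 43.5 and 40.8 CPM in the shZdhhc17 replicates. The shZdhhc17 values all lay inside the span of the controls, and Plk1 had the smallest p of the 10 genes (log2 fold change 0.083 ± 0.18, SE; unadjusted p = 0.650 and adjusted p = 0.872 by edgeR).

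The proliferation marker, the topoisomerase, the checkpoint kinase and the transcription factor completed the set. Mki67 (ENSMUSG00000031004.9), which encodes the coat protein of mitotic chromosomes known as Ki-67, stood at 315, 212 and 266 CPM in shSCR replicates 1, 2 and 3 and at 295, 268 and 232 CPM in the shZdhhc17 replicates. The means were nearly equal, 265 ± 31.3 CPM for shZdhhc17 against 264 ± 51.4 CPM for shSCR (SD, n = 3; log2 fold change 0.0054 ± 0.19, SE; edgeR adjusted p = 0.995). Top2a (ENSMUSG00000020914.18), the topoisomerase that untangles sister chromosomes, stood at 357, 248 and 330 CPM in the shSCR replicates and at 370, 321 and 302 CPM in the shZdhhc17 replicates. Only shSCR replicate 2 lay below 300 CPM, and the log2 fold change was 0.088 ± 0.19 (SE; edgeR adjusted p = 0.875). Bub1 (ENSMUSG00000027379.15), the spindle checkpoint kinase, stood at 37.0, 23.0 and 31.7 CPM in the shSCR replicates and at 36.1, 24.6 and 24.7 CPM in the shZdhhc17 replicates. Replicate 1 was the highest library of each group and shSCR replicate 2 the lowest of all (log2 fold change -0.10 ± 0.23, SE; edgeR adjusted p = 0.883). Foxm1 (ENSMUSG00000001517.15), the transcription factor of the G2 and mitosis programme, stood at 38.5, 46.7 and 56.0 CPM in the shSCR replicates and at 55.2, 44.6 and 38.2 CPM in the shZdhhc17 replicates. Unlike the other nine, Foxm1 was not lowest in shSCR replicate 2, and its mean hardly differed between groups (log2 fold change -0.033 ± 0.19, SE; edgeR adjusted p = 0.962).

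**Figure D2:**
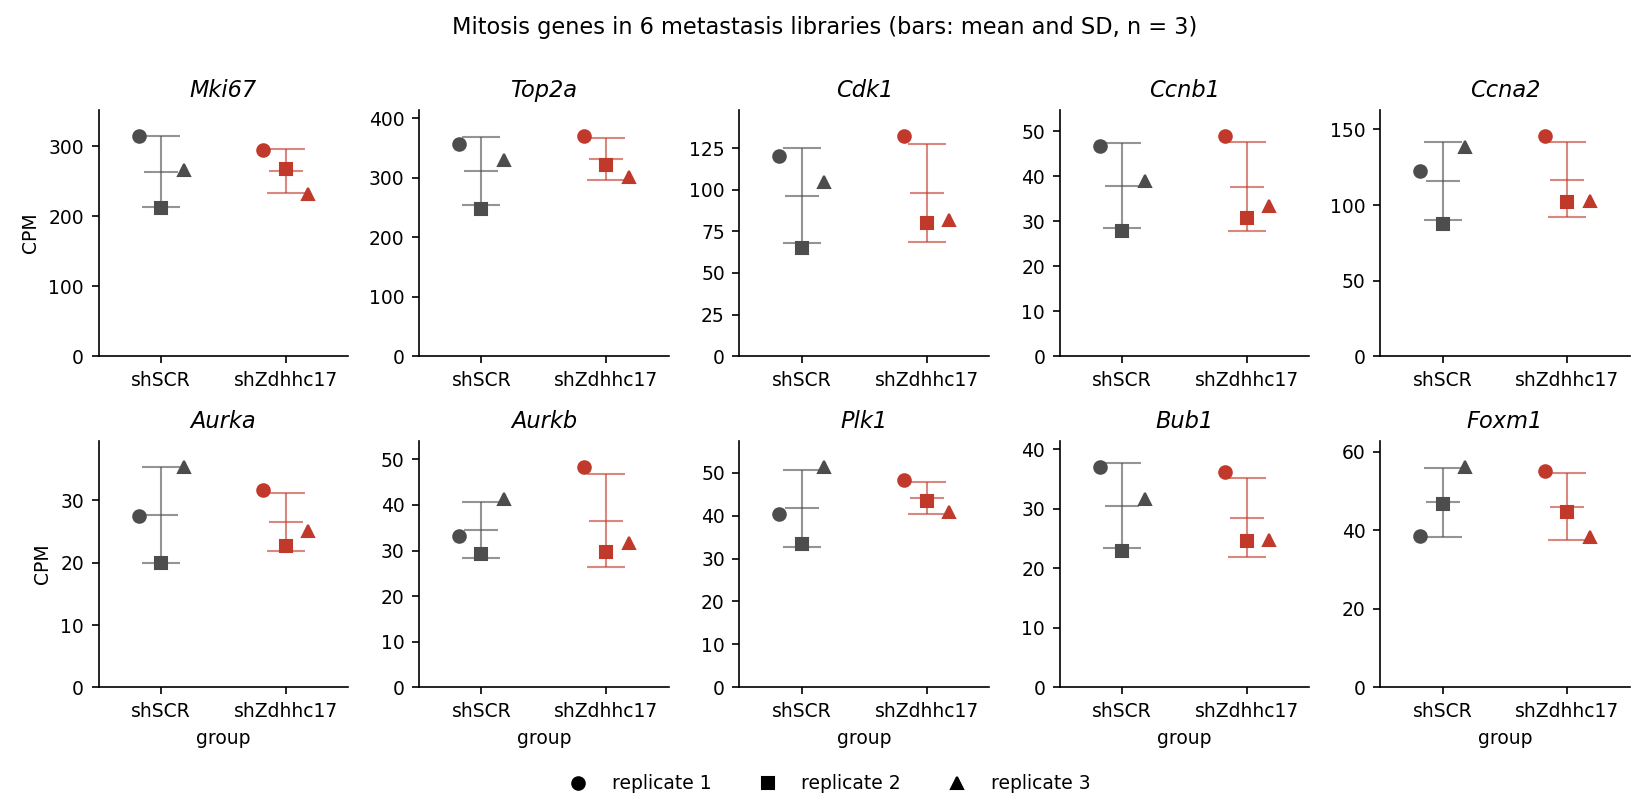
CPM of each of the 10 mitosis genes in every library, by group (marker shape: replicate; bars: mean and SD, n = 3). In every panel the points of the 2 groups overlap, and shSCR replicate 2 is the lowest point for 9 of the 10 genes.

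In the authors' deposited table the 10 genes had log2 fold changes from -0.082 (Bub1) to 0.11 (Top2a), with the lowest q at 0.914, also for Top2a, where 0.844% of all its genes had a q under 0.05. The authors' deposited enrichment table, which scores sets of genes along a ranked list, gave the hallmark G2M checkpoint set a normalized enrichment score of 0.897 (q = 0.925, 198 genes). It gave the E2F target set 1.16 (q = 0.575, 200 genes) and the mitotic spindle set 0.542 (q = 1, 199 genes). Those 3 sets hold 8, 6 and 5 of the 10 mitosis genes, and 0 of them stood in the part of any of the 3 lists that the authors' deposited table names as leading its score.

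The mitosis genes nevertheless varied between metastases of one group, and they did so together. Averaged over the 10 genes, the level relative to each gene's own mean was 0.12, -0.33 and 0.18 on the log2(CPM + 1) scale in shSCR replicates 1, 2 and 3, and 0.30, -0.13 and -0.15 in the shZdhhc17 replicates. In shZdhhc17 replicate 1 and in shSCR replicate 3 all 10 genes stood above their own mean, against 48.3% and 53.5% of all genes tested. In shZdhhc17 replicate 3 none of the 10 did, against 48.2% of all genes. In shSCR replicate 2 only Foxm1 did, by 0.020, against 46.6% of all genes. Such an order was not particular to the 10: the S-phase genes described below were also highest in shZdhhc17 replicate 1 and lowest in shSCR replicate 2 on average. The spread within groups was thus wider than the difference between them, 0.015 on the same scale for the mean over the 10 genes. As a description over 6 libraries that share these groups and their normalization, each gene's Pearson r with the mean of the other nine was 0.99 for Ccna2, 0.95 for Cdk1, 0.91 for Ccnb1, 0.90 for Bub1 and Aurka, 0.88 for Top2a and Aurkb, 0.79 for Mki67 and Plk1, and 0.41 for Foxm1.

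**Figure D3:**
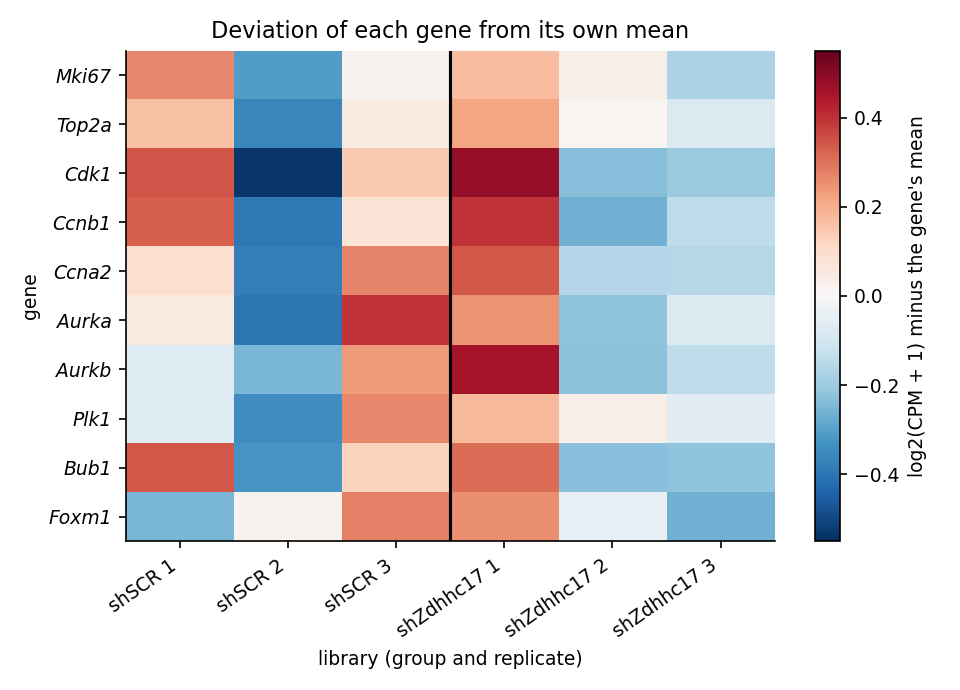
Each mitosis gene (rows) in each library (columns) as log2(CPM + 1) minus that gene's mean over the 6 libraries; the black line separates shSCR (left) from shZdhhc17 (right). Columns rather than groups share a colour: shSCR replicate 2 is low by 0.33 on average and shZdhhc17 replicate 1 high by 0.30, while Foxm1 is low in shSCR replicate 1 (-0.25) and near its mean in shSCR replicate 2 (0.020).

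Outside the cell cycle lists, the 8 genes whose levels followed the mean of the 10 most closely, among 11271 ranked, were Nsmce4a (r = 0.996), Cdkn3 (r = 0.993), Brk1 (r = 0.988), Nrbp1 (r = 0.987), Lamtor5 (r = 0.985), Rfc3 (r = 0.985), Ube2n (r = 0.984) and Tipin (r = 0.984). Each r is over the same 6 libraries and is the highest of many, so it describes likeness only. Nsmce4a encodes a subunit of the SMC5/6 complex, Cdkn3 a phosphatase that acts on CDKs, Rfc3 a subunit of the clamp loader of DNA replication and Tipin a replication fork protein. No cell cycle role is claimed here for Brk1, Nrbp1, Lamtor5 and Ube2n, whose r ran from 0.984 to 0.988. Cdkn3 spread the most of the 8, from 5.65 CPM in shSCR replicate 2 to 13.5 CPM in shZdhhc17 replicate 1.

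The 10 genes were chosen as genes of mitosis, so the letters of their promoters are given as a description and not as an independent result. Genes that move together late in the cell cycle are known to carry 2 short elements near their start sites. These are the cell cycle genes homology region (CHR), which MuvB complexes bind, and the CCAAT box, which NF-Y binds. RefSeq promoter windows of 300 bases (250 before to 50 after the start, build GRCm38.p6, another build than that of the counts) were matched for 7 of the 10 genes; Ccna2, Aurkb and Foxm1 were not matched. The letters TTTGAA or TTCGAA for the CHR and CCAAT for the CCAAT box were searched on both strands. A CHR match was present in 6 of the 7 genes, against 21.7% of the 27025 genes with windows (19.2% of all 32851 windows). A CCAAT match was present in 7 of the 7, against 41.1% of all genes, and both together in 6 of the 7, against 8.61%. The letters TTTCGCGC or TTTGGCGC of an E2F site were present in 1 of the 7, Cdk1, against 0.929% of all genes. A match is a description of letters, and none of these windows was measured for binding. Shown are Top2a, which holds the most matches of the 7 genes, Cdk1, which holds all 3 kinds, Plk1, whose CHR match lies after the start, and Ccnb1, with CCAAT matches alone; capitals mark CHR and CCAAT matches on either strand, read 5′ to 3′ along the gene.
Top2a promoter, chr11:99024140-99024439, minus strand: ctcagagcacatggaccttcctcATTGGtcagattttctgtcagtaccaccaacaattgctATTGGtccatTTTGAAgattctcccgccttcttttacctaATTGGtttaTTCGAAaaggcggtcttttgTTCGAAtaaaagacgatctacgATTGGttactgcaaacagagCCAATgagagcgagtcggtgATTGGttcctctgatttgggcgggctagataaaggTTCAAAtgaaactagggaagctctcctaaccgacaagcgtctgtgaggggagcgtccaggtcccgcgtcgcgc
Cdk1 promoter, chr10:69352863-69353162, minus strand: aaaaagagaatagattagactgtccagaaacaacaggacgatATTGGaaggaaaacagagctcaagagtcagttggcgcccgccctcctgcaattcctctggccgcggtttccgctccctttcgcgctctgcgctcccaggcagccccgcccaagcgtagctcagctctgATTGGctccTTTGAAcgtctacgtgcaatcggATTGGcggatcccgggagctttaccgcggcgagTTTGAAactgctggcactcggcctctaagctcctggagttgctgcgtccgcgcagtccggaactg
Plk1 promoter, chr7:122159185-122159484, plus strand: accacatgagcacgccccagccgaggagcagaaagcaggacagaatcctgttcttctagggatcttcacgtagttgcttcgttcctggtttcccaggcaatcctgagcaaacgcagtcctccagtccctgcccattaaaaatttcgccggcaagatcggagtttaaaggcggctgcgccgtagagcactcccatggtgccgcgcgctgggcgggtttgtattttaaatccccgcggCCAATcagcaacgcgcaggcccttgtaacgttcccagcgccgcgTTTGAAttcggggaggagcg
Ccnb1 promoter, chr13:100786437-100786736, minus strand: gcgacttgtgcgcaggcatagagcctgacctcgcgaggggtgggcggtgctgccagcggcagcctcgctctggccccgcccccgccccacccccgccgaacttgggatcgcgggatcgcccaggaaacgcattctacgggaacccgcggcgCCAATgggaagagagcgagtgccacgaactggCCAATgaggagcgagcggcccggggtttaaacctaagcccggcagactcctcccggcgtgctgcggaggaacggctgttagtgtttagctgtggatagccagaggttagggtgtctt
In Top2a the 4 CHR matches began at -179, -140, -120 and -23 from the start site and the 6 CCAAT matches between -227 and -58. In Cdk1 CHR matches began at -71 and -15 and the E2F letters at -131. In Plk1 the CHR match began at 31 and the CCAAT match at -14, and in Ccnb1 CCAAT matches began at -99 and -67. Of the genes not shown, Mki67 had CHR matches at -116 and -98, Aurka 1 at 33 and Bub1 1 at 15. No 2 matches overlapped. Top2a, Cdk1, Plk1 and Ccnb1 are printed for their sequence alone, and their values in the metastases stand above, each lowest in shSCR replicate 2.

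Levels can be set between genes only per length, here as CPM per kilobase of annotated exon (GENCODE M21, GRCm38, all isoforms merged). On that scale Top2a was the most abundant of the 10 with a mean of 35.7 over the 6 libraries (27.5 to 41.1), followed by Ccna2 at 28.5 (21.5 to 35.7) and Mki67 at 26.3 (21.0 to 31.3). Cdk1 at 19.7 and Plk1 at 19.5 came next, then Aurkb at 12.1, Aurka at 10.7, Ccnb1 at 8.94, Foxm1 at 8.08 and Bub1 at 6.78 (5.27 to 8.49). The ranges of neighbours in this order overlapped, so the order is that of means. The merged exons can overstate the length of the transcripts present.

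Around the 10 genes, 159 other genes of the cell cycle were read in 11 lists by role, and all 159 were tested. Of the 159, 0 passed the threshold, and DESeq2 called 0 of them. At an unadjusted p under 0.05 there were 3, all lower in shZdhhc17, or 1.89% where all genes gave 11.4%. The groups did not overlap in 9 of them (5.66%), against 17.1% of all genes. These other cell cycle genes had a median log2 fold change of 0.027 and a median absolute value of 0.12.

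Lists that act beside the mitotic kinases were centred near 0, each with 0 genes past the threshold. The 12 genes of mitotic entry had a median of -0.086, with 5 positive and 7 negative. They are cyclins, CDC25 phosphatases, the kinases that hold CDK1 inactive, and Nek2, Bora, Mastl, Melk and Haspin. Cdc25a, a phosphatase that activates CDKs, had -0.24 ± 0.16 and Pkmyt1, an inhibitory kinase, -0.31 ± 0.29 (SE). The phosphatase gene Cdc25b had -0.19 ± 0.23 (SE). The 4 partners of the Aurora kinases had a median of -0.0038, with 0.12 ± 0.19 for Tpx2, an activator of Aurora A, and -0.10 ± 0.27 and -0.036 ± 0.21 for Birc5 and Cdca8, subunits of the passenger complex (SE). Among 9 spindle checkpoint genes the median was 0.048; Knl1, the kinetochore scaffold that BUB1 binds, had 0.29 ± 0.14 (SE; edgeR adjusted p = 0.485), Mad1l1 0.21 ± 0.18 and Zwilch -0.17 ± 0.18. Knl1 stood at 26.1, 20.2 and 24.1 CPM in shSCR replicates 1, 2 and 3 and at 30.6, 28.3 and 27.0 CPM in the shZdhhc17 replicates, so its groups did not overlap.

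In the lists for later steps of division, again 0 genes passed the threshold. The 17 genes of the anaphase-promoting complex and its regulators had a median of -0.021, with 0.16 ± 0.12 for Anapc1, -0.14 ± 0.12 for Cdc23 and 0.20 ± 0.22 for Anapc10, all subunits of the complex (SE). The 21 kinetochore and centromere genes had a median of 0.00097, with -0.33 ± 0.19 for Hjurp, the chaperone of the centromeric histone, 0.36 ± 0.30 for Cenpk and 0.22 ± 0.25 for Cenpi (SE). Hjurp stood at 194, 218 and 302 CPM in the shSCR replicates and at 187, 195 and 184 CPM in the shZdhhc17 replicates, with shSCR replicate 3 far above the rest. The 18 genes of mitotic motors and cytokinesis had a median of 0.042, with 0.30 ± 0.18 for Kif11, the motor that separates spindle poles, 0.29 ± 0.22 for Ect2, a regulator of the cleavage furrow, and -0.25 ± 0.24 for the kinesin gene Kifc1 (SE). The 11 condensin and chromosome genes had a median of 0.15, 9 of them positive, with 0.33 ± 0.20 for Ncapg2, 0.34 ± 0.23 for the histone gene H2az1 and 0.24 ± 0.17 for Smc2 (SE).

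The regulators of the programme and the brakes on it held the 3 genes with an unadjusted p under 0.05. The 19 MuvB, MYB, E2F and retinoblastoma family genes had a median of 0.026. Among them Lin37, a MuvB subunit, stood at 11.6, 11.7 and 15.5 CPM in the shSCR replicates and at 10.4, 9.02 and 9.17 CPM in the shZdhhc17 replicates (log2 fold change -0.44 ± 0.18, SE; edgeR adjusted p = 0.423). The atypical E2F genes E2f7 and E2f8, repressors of the cell cycle, had 0.42 ± 0.19 and 0.32 ± 0.16 (SE). The list of G1 cyclins and CDKs, whose 12 genes include also Myc, Skp2, Cks1b and Cks2, had a median of -0.079. Ccnd2, a cyclin that responds to growth signals, stood at 65.1, 75.8 and 92.2 CPM in the shSCR replicates and at 49.9, 59.7 and 50.8 CPM in the shZdhhc17 replicates (log2 fold change -0.54 ± 0.16, SE; edgeR adjusted p = 0.348), without overlap. Cdk2, a kinase of S-phase entry, had -0.30 ± 0.16 and its cyclin partner Ccne2 0.30 ± 0.17 (SE). The 13 CDK inhibitors and p53 targets had a median of -0.15 with 9 negative. Mdm2, a p53 target and the ubiquitin ligase of p53, stood at 74.6, 77.9 and 78.8 CPM in the shSCR replicates and at 65.6, 63.2 and 56.3 CPM in the shZdhhc17 replicates (log2 fold change -0.32 ± 0.11, SE; edgeR adjusted p = 0.391). Btg2, an antiproliferative gene, had 0.33 ± 0.20 and the CDK inhibitor gene Cdkn2a, at under 2 CPM in both groups on average, -0.81 ± 0.49 (SE).

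**Figure D4:**
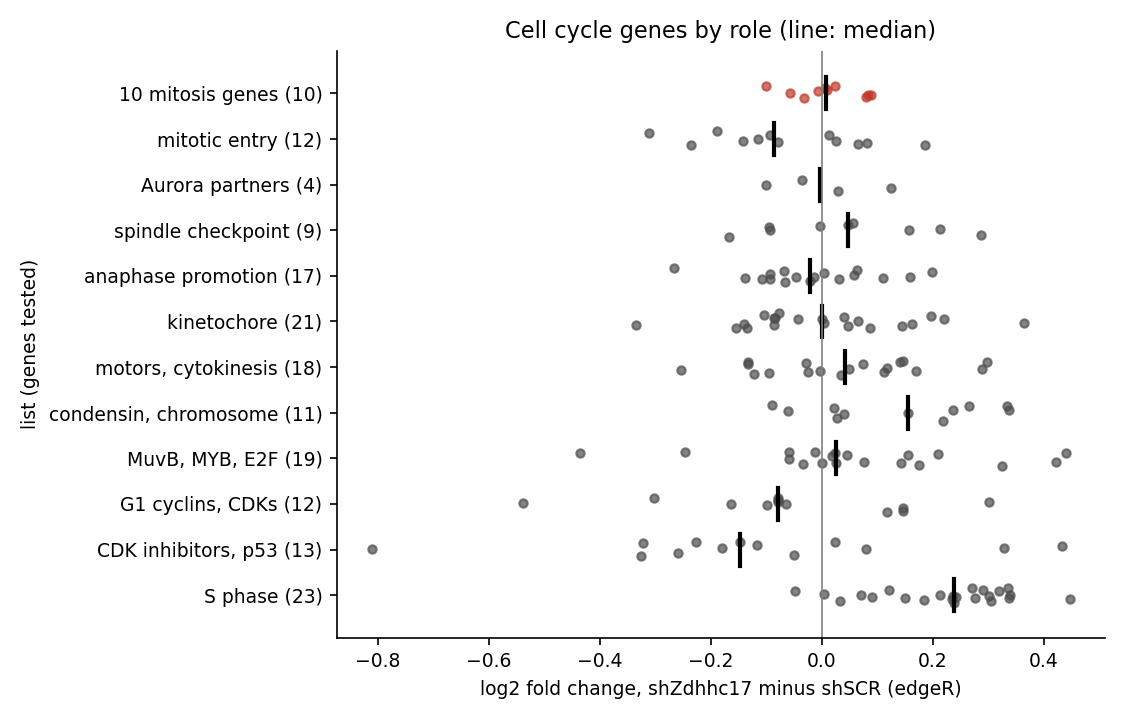
Log2 fold change of every tested gene, shZdhhc17 minus shSCR, for the 10 mitosis genes (red) and 11 lists of other cell cycle genes (grey), with the number of genes in brackets and the median as a black line. The 10 mitosis genes cluster around 0, and the S-phase list lies to the right with a median of 0.24.

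The S-phase list holds genes for copying DNA. Of its 23 genes 22 had a positive log2 fold change, where 49.7% of all genes had a negative one, and the median was 0.24, while 0 passed the threshold. These values rest in part on single libraries and on the scaling: 17 of the 23 were positive without shZdhhc17 replicate 1 (median 0.082), without shSCR replicate 2 (median 0.13) and with library totals alone (median 0.12, where the median of all genes was -0.13). Mcm5, Mcm2 and Mcm4, subunits of the replicative helicase, had 0.34 ± 0.16, 0.34 ± 0.16 and 0.30 ± 0.16 (SE; edgeR adjusted p = 0.468, 0.472 and 0.495). Mcm5 stood at 76.4, 63.6 and 79.2 CPM in shSCR replicates 1, 2 and 3 and at 110, 84.3 and 82.6 CPM in the shZdhhc17 replicates, which did not overlap. Within each library, the mean log2(CPM + 1) of the 10 mitosis genes lay above that of the S-phase genes by 0.78, 0.71 and 0.84 in the shSCR replicates and by 0.61, 0.57 and 0.56 in the shZdhhc17 replicates. This within-library distance was smaller in each shZdhhc17 library than in each shSCR library, by 0.20 between the group means. It was compared after the values were seen and has no test.

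Epithelial genes, read here as markers of the cancer cells, varied beside the mitosis genes from library to library. The dissected tissue also holds host liver, and how much of their level came from host cells was not tested. In bulk tissue, fewer cells of a type and less RNA per cell cannot be told apart. The 10 carcinoma markers (keratins, claudins, Epcam and Cdh1), none of them at 0 in any library, averaged 7.10, 6.67 and 7.04 on the log2(CPM + 1) scale in shSCR replicates 1, 2 and 3 and 7.06, 6.28 and 6.22 in the shZdhhc17 replicates. The markers did not all move the same way. Their log2 fold changes ran from -0.92 to 0.55, with 2 positive and 8 negative, and 0 passed the threshold. The same 3 libraries, shSCR replicates 1 and 3 and shZdhhc17 replicate 1, were the highest both for the carcinoma markers and for the mean of the mitosis genes. The summed level of these markers ran from 2066 to 3172 CPM in shSCR and from 1729 to 3137 CPM in shZdhhc17. Krt18, the highest of them, stood at 1173, 766 and 1224 CPM in the shSCR replicates and at 1089, 870 and 651 CPM in the shZdhhc17 replicates. Subtracted within each library, the mitosis genes lay below the carcinoma markers by 0.89, 0.91 and 0.77 log2 units in the shSCR replicates and by 0.67, 0.32 and 0.28 in the shZdhhc17 replicates, without overlap. The S-phase genes minus the same markers gave -1.67, -1.61 and -1.61 in the shSCR replicates and -1.28, -0.89 and -0.85 in the shZdhhc17 replicates, also without overlap. Between group means, the carcinoma markers differed by -0.42 and the mitosis genes by 0.015. Both distances were compared after the values were seen and have no test. With the carcinoma marker mean as a covariate in the edgeR fit, the median log2 fold change of the 10 genes was 0.28 in place of 0.0077, and all 10 were positive, from 0.12 for Foxm1 to 0.47 for Cdk1. Still 0 passed (lowest edgeR adjusted p = 0.436, for Cdk1, whose unadjusted p was 0.0388). Cdk1 was the only 1 of the 10 with an unadjusted p under 0.05 in that fit. Of all 15567 genes tested, 1736 had an unadjusted p under 0.05 there, and 0 passed the threshold.

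**Figure D5:**
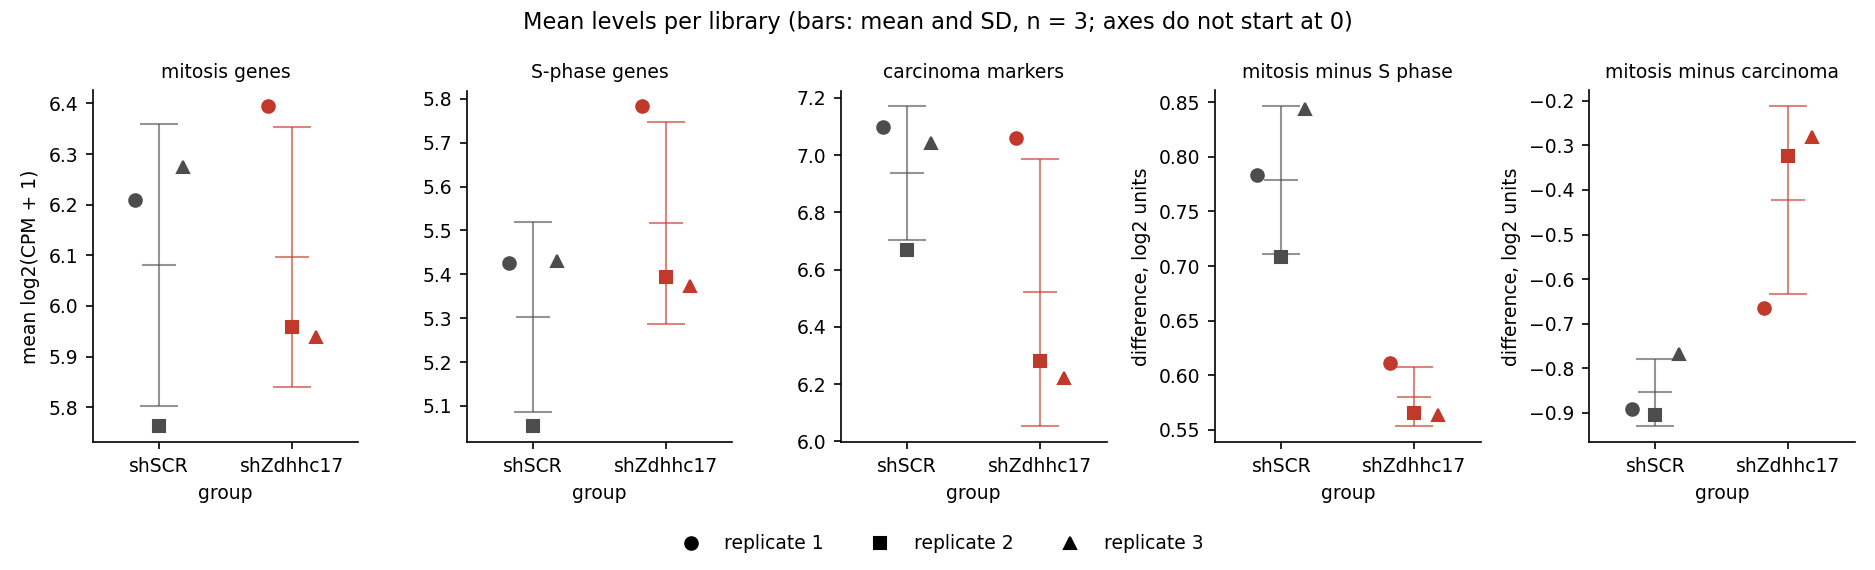
Mean log2(CPM + 1) per library of the mitosis genes, the S-phase genes and the carcinoma markers, and the distance of the mitosis genes from the other lists, by group (marker shape: replicate; bars: mean and SD, n = 3). The mitosis genes overlap between groups, while their distance from S-phase genes (0.56 to 0.61 against 0.71 to 0.84) and from carcinoma markers (-0.67 to -0.28 against -0.91 to -0.77) does not.

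Markers of other cells were read in the same libraries. The 6 neutrophil progenitor markers, genes of a dividing blood cell stage, summed to 15.8 to 56.2 CPM in shSCR and 85.4 to 367 CPM in shZdhhc17, with Ctsg at 0 in 1 or more libraries. Prtn3, the highest of them, stood at 17.9, 31.9 and 12.8 CPM in the shSCR replicates and at 39.7, 43.2 and 122 CPM in the shZdhhc17 replicates. The 8 neutrophil markers summed to 234 to 377 CPM in shSCR and 472 to 710 CPM in shZdhhc17. Both lists were thus higher in each shZdhhc17 library, by 2.49 and 1.17 in mean log2(CPM + 1). Among single genes, 7.48% of all tested were higher in shZdhhc17 without overlap. The lists were chosen with earlier results of these data known, so their separation was not tested. The 7 erythroid markers summed to 273 to 1074 CPM in shSCR and 925 to 1510 CPM in shZdhhc17. The highest gene of the neutrophil list, S100a9, and of the erythroid list, Hbb-bs, were lowest in shSCR replicate 3 (28.1 CPM) and shSCR replicate 1 (152 CPM). The 10 hepatocyte markers summed to 18464 to 47249 CPM in shSCR and 38961 to 52553 CPM in shZdhhc17, with Alb lowest in shSCR replicate 3 at 7831 CPM. Summed levels overlapped between groups for the 7 macrophage markers (801 to 1027 against 855 to 1075 CPM, led by C1qa), the 7 T cell markers (8.23 to 35.1 against 7.11 to 14.1 CPM, led by Cd4) and the 6 endothelial markers (274 to 336 against 276 to 412 CPM, led by Stab2). Summed levels overlapped also for the 6 B and plasma cell markers (5.34 to 10.0 against 5.91 to 14.0 CPM, led by Jchain). Those of the 7 stellate and fibroblast markers, led by Col3a1, ran from 4849 to 9178 CPM in shSCR and from 3807 to 4629 CPM in shZdhhc17. As mean log2(CPM + 1) the stellate and fibroblast markers overlapped, at 8.21, 8.30 and 8.75 in shSCR and 8.02, 8.22 and 8.26 in shZdhhc17. The part of these cells in the level of the mitosis genes was not tested.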

How the data were processed

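Polyadenylated RNA of 6 libraries (3 per group) was sequenced with a stranded dUTP kit, per the labels' protocols. Per the submitters' processing notes, the tools were DESeq2 1.34.0, STAR 2.6.1, FastQC 0.11.8 and HTSeq; genes follow GRCm39, per the file headers. The authors deposited raw counts per gene for each library (whole numbers, not normalized). The authors' deposited DESeq2 table gives log2 fold changes and p-values with q-values for shZdhhc17 against shSCR, and their deposited enrichment table normalized enrichment scores. Whether counting used strand was not given in the sources used here.

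From the counts, edgeR 4.0.16 (R 4.3.3; glmQLFit with robust estimation, glmQLFTest, two-sided, TMM, filterByExpr, groups from the sample titles, no covariate) tested 15567 of 24167 genes; p-values were adjusted over all of them at a threshold of 0.05. Standard errors and 95% intervals were derived from the fold change and its F statistic. CPM use TMM library sizes, and log2 levels add a pseudocount of 1. The common dispersion was 0.0552. Alternatives were DESeq2 1.42.0, limma 3.58.1 (voom), other scalings and filters, a replicate block, 2 covariates and leaving out each library.

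The mitosis genes and the gene lists were chosen with earlier results of these data known. Named are the 10 genes, Zdhhc17, from each of 11 role lists the 3 genes with the smallest p, the 8 genes of at least 5 CPM most like the mean of the 10 by Pearson r (predicted genes and pseudogenes left out), and the highest gene of each cell type list. Rows without a gene name numbered 0.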

Additional observations from a re-analysis of the deposited data

How the results depend on the processing

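Limits: 3 libraries per group, bulk tissue, and a spread between libraries of one group that exceeded counting error. Across 15 alternatives the number of the 10 mitosis genes past the threshold stayed at 0, and their lowest adjusted p in any of them was 0.436 (carcinoma marker covariate). The number of all genes past it was 0 by edgeR and 204 with DESeq2, 3 with no filter on low counts, 6 with the hepatocyte marker mean as a covariate and 0 to 1 without a single library; the cause was not tested. The edgeR fit had 1780 genes at an unadjusted p under 0.05, and voom, with 0 genes past the threshold, 1682. The median log2 fold change of the 10 genes was 0.28 with the carcinoma marker covariate. Among the fits that leave out a single library it was lowest, at -0.17, without shZdhhc17 replicate 1 and highest, at 0.12, without shSCR replicate 3.

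Fold changes this close to 0 changed sign easily. Library totals alone, which moved the median of all genes to -0.13, gave -0.11 for Mki67 and Ccna2, -0.032 for Top2a, -0.082 for Cdk1, -0.045 for Aurkb and -0.050 for Plk1 (median of the 10 genes -0.11). With a single library left out, log2 fold changes ranged from -0.13 to 0.15 for Mki67, -0.052 to 0.20 for Top2a, -0.24 to 0.22 for Cdk1, -0.23 to 0.17 for Ccnb1, -0.17 to 0.15 for Ccna2 and -0.25 to 0.16 for Aurka. They ranged from -0.16 to 0.22 for Aurkb, -0.055 to 0.26 for Plk1, -0.30 to 0.062 for Bub1, -0.17 to 0.11 for Foxm1, -0.53 to 0.032 for Pkmyt1 and -0.36 to 0.053 for Cdc25b. For Tpx2 they ranged from -0.021 to 0.21, for Birc5 from -0.36 to 0.13, for Cdca8 from -0.19 to 0.16 and for Cenpi from -0.019 to 0.37. The lowest came without shSCR replicate 2 (Mki67, Top2a, Aurka, Plk1, Tpx2) or without shZdhhc17 replicate 1 (the others), the libraries where the mitosis genes stood lowest and highest. The carcinoma covariate gave 0.37 for Ccnb1, 0.24 for Aurka, Bub1 and Cdca8, 0.12 for Foxm1, 0.093 for Cdc25b, 0.27 for Birc5, 0.056 for Zwilch and 0.082 for Kifc1. The hepatocyte covariate gave -0.0035 for Mki67, 0.0022 for Aurka, 0.031 for Foxm1 and 0.021 for Cdca8. Ccnb1 had 0.011 with DESeq2, 0.0094 with its size factors and 0.00095 with no filter.

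Of the S-phase genes, 17 of 23 were positive with library totals alone, without shSCR replicate 2 or without shZdhhc17 replicate 1 (medians 0.12, 0.13 and 0.082), and 22 or 23 otherwise. The distance between mitosis and S-phase genes, smaller by 0.20 in shZdhhc17, was smaller by 0.17 to 0.23 without a single library and by 0.25 with MCM genes alone, settings added after seeing the data. Deviations of same-numbered libraries from their group means correlated at -0.059, 0.32 and -0.046, and those of differently numbered libraries from -0.40 to 0.30. Such deviations sum to 0 within each group of 3, so they cannot decide whether the numbers pair the samples. With the replicate block the median of the 10 genes was 0.016, with 0 genes past the threshold.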
